A study of Mus musculus with 28 samples.

Results

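The genes described here are 10 genes of MHC class II antigen presentation and its regulation in mouse macrophages: Ciita, Rfx5, H2-Ab1, H2-Aa, H2-Eb1, H2-DMa, H2-DMb1, H2-DMb2, H2-Oa and Cd74. They were chosen by name from 55487 gene IDs, and all 10 were among the 13631 genes that reached at least 1 TPM in at least 4 of 28 libraries. TPM is a share of a library's transcripts, corrected for transcript length and scaled to 1 total for all libraries, so levels of different genes can be set side by side. The cells were wild-type BMDM, that is, macrophages cultured from bone marrow. The 28 libraries fall into 7 groups of 4. M0 macrophages were held for 48 h without a polarizing cytokine, and their labels name no T cells. The other 6 groups were held for 48 h with IFN-γ or IL-10, each at 50 ng/mL, beside T cells in which ATP or NAD+ had induced apoptosis, stained with fluorescent anti-CD4. For each cytokine, sorting by the dye gave 3 populations: Treg-phagocytic (uptake of regulatory T cells), Tconv-phagocytic (uptake of conventional T cells) and non-phagocytic (uptake of neither). The series asks how uptake of each kind of T cell changes macrophage transcripts under each cytokine. A comparison with M0 therefore holds the cytokine, the co-culture and the sort together, and these cannot be told apart.

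MHC class II molecules carry peptides of engulfed material to the cell surface for CD4 T cells. An α and a β chain (here I-A from H2-Aa and H2-Ab1, and the I-E β chain H2-Eb1) pair with the invariant chain Cd74, which fills the groove and guides the complex to the endosome. There H2-DM removes the last piece of Cd74 and loads peptide, and H2-O holds H2-DM back. Ciita, the master coactivator of class II genes, does not bind DNA itself. It sits on promoters that are held by the RFX complex (Rfx5 with Rfxap and Rfxank), by CREB and by NF-Y, and in macrophages IFN-γ is its classic inducer, with IRF1 among the factors at its promoter.

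RFX binds an X box and NF-Y a Y box just upstream of class II genes, so stretches of 52 bases that end at the Y box are shown for the genes whose RefSeq promoter entries hold them (assembly GRCm38.p6, 5′ to 3′ on the gene's strand). Capitals mark matches to an X motif, CNNGNAAC, and to a Y motif, TGATTGG. The motif letters were set after these sequences had been looked at.
H2-Aa: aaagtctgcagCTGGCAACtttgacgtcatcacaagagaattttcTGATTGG
H2-Eb1: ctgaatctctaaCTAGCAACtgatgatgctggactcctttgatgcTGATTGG
H2-Oa: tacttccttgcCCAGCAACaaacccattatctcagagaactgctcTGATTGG
H2-Ob: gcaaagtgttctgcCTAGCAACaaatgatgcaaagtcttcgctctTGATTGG
H2-DMb2: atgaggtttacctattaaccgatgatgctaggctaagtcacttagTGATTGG
These stretches lie at chr17:34287867-34287918 on the minus strand for H2-Aa, and on the plus strand at chr17:34305761-34305812 for H2-Eb1, chr17:34092289-34092340 for H2-Oa, chr17:34238801-34238852 for H2-Ob and chr17:34145112-34145163 for H2-DMb2. The start of the X match lay 34 bases before that of the Y match in H2-Aa and H2-Oa, 33 in H2-Eb1 and 31 in H2-Ob. The H2-DMb2 stretch holds the Y motif with no X match paired to it. Its letters ctattaac miss the X motif only at the G, and start 34 bases before the Y match. Since the motif letters were set with the sequences in view, this does not show that H2-DMb2 lacks an X box. Such a pair, with starts 25 to 45 bases apart in the 250 bases upstream and searched on both strands, was found in 43 of 32851 mouse promoter windows, or 0.131%, while the X motif alone was in 33.3% and the Y motif alone in 7.23%. H2-DMb1 also holds the pair, 34 bases apart, but its stretch is not shown because all 52 bases lie in annotated exons. The windows of H2-DMa and Rfx5 hold no pair. No promoter entry was matched to H2-Ab1, Ciita or Cd74, so these genes were not searched. A match of letters is a description, not a shown binding site.

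The members with no exon shared with another gene are, in the GENCODE vM21 annotation of the same build, H2-Ab1 (ENSMUSG00000073421, chr17:34257689-34269419), H2-Aa (ENSMUSG00000036594, chr17:34282744-34287823), H2-Eb1 (ENSMUSG00000060586, chr17:34305867-34316674), H2-DMb1 (ENSMUSG00000079547, chr17:34153072-34160230) and H2-DMb2 (ENSMUSG00000037548, chr17:34143307-34151555). Exons on the opposite strand overlap H2-DMa (ENSMUSG00000037649, chr17:34119541-34139101, with Brd2), H2-Oa (ENSMUSG00000024334, chr17:34092340-34095234, with BC051537), Ciita (ENSMUSG00000022504, chr16:10480059-10528418, with Dexi) and Rfx5 (ENSMUSG00000005774, chr3:94954075-94961561, with B230398E01Rik). The library kit keeps the strand, but whether the quantification used it is not given in the sources used here, so these 4 levels may hold reads of the partner gene. H2-DMb1 and H2-DMb2 transcripts were 94.1% identical over 1219 aligned bases, with a longest identical stretch of 221 bases. How reads common to both were split is unknown, so the low level of H2-DMb2 is uncertain.

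Depth had to be read from the spacing of low values, since the files hold no counts. Set against the deepest library, an M0 library at 100%, the other M0 libraries reached 69.0% or more, the 12 IL-10 libraries 49.4% to 90.3%, and the 12 IFN-γ libraries 11.0% to 24.1%, so IFN-γ values of low genes are the least precise. Macrophage markers summed to 16350 to 21080 TPM over 7 genes in all groups. Most of this was Lyz2, with group means of 12880 to 18160 TPM, while those of Mertk were 15.2 to 30.8 TPM. T cell markers (9 genes) summed to 29.1 to 94.0 TPM in M0, 54.0 to 148 TPM with IL-10 and 331 to 600 TPM with IFN-γ. The dye of the anti-CD4 antibody differs between titles and library names for all 8 Treg-phagocytic libraries, and libraries are named here by their titles. Nothing in the labels says that the 4 libraries of a group came from separate mice or cultures, so p-values measure only the spread between these samples, which may be technical.

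IFN-γ non-phagocytic macrophages were set against M0. Of the 10 genes, 8 rose and 0 fell. The α and β chains rose 3.73- to 4.37-fold, H2-DMa, H2-DMb1 and Cd74 rose 2.54- to 4.51-fold, and H2-Oa rose from under 1 TPM. Of all genes tested, 52.3% were called in this comparison, so the count of members has to be read against a background in which most genes moved. The median log2 fold change was 1.67 over the members and 0.03 over all genes tested. Fold changes are differences of log2(scaled TPM + 1), tested with limma on the libraries compared and adjusted over all genes by Benjamini-Hochberg. Scaling added 0.329 to the log2 difference of genes far above the added 1, and less to low genes. Folds printed here are therefore larger than the ratio of the TPM beside them for abundant genes, and smaller for genes near 0 in M0, such as H2-Oa.

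H2-Ab1, the I-A β chain, was at 438, 426, 438 and 431 TPM in the M0 libraries. Under IFN-γ the non-phagocytic libraries were at 1586, 1585, 1396 and 1479 TPM. Every IFN-γ library was above every M0 library, and the difference was 4.37-fold (limma log2 difference 2.13, SE 0.048, adjusted p 3.12e-08). H2-Aa, its α partner, was at 450 ± 22.8 TPM in M0 and 1337 ± 55.3 TPM under IFN-γ (SD, n = 4), a 3.73-fold rise (limma log2 difference 1.90, adjusted p 3.12e-08). H2-Eb1, the I-E β chain, was at 391 ± 10.1 and 1340 ± 110 TPM (SD, n = 4), a 4.28-fold rise (limma log2 difference 2.10, adjusted p 5.96e-08). The 3 chains thus stood within a narrow band of each other in both groups.

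Cd74, the invariant chain (ENSMUSG00000024610, chr18:60803848-60812652, with the microRNA gene Mir5107 inside an exon on the same strand), was the most abundant member throughout. It was at 1358, 1282, 1332 and 1266 TPM in M0 and 2986, 2878, 2587 and 2848 TPM under IFN-γ. The groups did not overlap, and the 2.71-fold rise (limma log2 difference 1.44, SE 0.049, adjusted p 1.08e-07) was smaller than that of the chains Cd74 binds.

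H2-DMa, the α chain of the peptide exchanger, was at 65.2, 49.3, 56.0 and 55.8 TPM in M0 and at 213, 221, 190 and 198 TPM under IFN-γ, a 4.51-fold rise (limma log2 difference 2.17, SE 0.086, adjusted p 1.94e-07). H2-DMb1, its β partner, was at 89.7 ± 2.91 and 182 ± 9.95 TPM (SD, n = 4), a 2.54-fold rise (limma log2 difference 1.34, adjusted p 2.20e-07). The α chain was therefore the lower of the pair in every M0 library and the higher in every IFN-γ non-phagocytic library. H2-DMb2, the second β gene, stayed under 4 TPM everywhere. Its log2 difference of 0.79 (SE 0.35, limma adjusted p 0.0865) passed the test without IFN-γ non-phagocytic library 1 (limma adjusted p 0.0425). H2-Oa, the α chain of the H2-DM inhibitor, was at 0.60, 0.57, 0.73 and 0.59 TPM in M0 and at 5.74, 7.87, 6.34 and 8.14 TPM under IFN-γ. The groups were far apart (limma log2 difference 2.50, SE 0.15, adjusted p 1.87e-06), and the added 1 makes this fold an understatement for so low a gene.

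Ciita was at 4.63, 3.62, 3.42 and 3.79 TPM in M0. Under IFN-γ it was at 9.13, 8.76, 4.74 and 7.72 TPM, and the third library was just above the highest M0 library. The rise was 2.09-fold (limma log2 difference 1.07, SE 0.20, adjusted p 0.00189). Rfx5, the DNA-binding subunit of RFX, was at 7.14 ± 0.90 TPM in M0 and 7.13 ± 1.73 TPM under IFN-γ (SD, n = 4). Its groups overlapped and it did not pass the test (limma log2 difference 0.27, SE 0.16, adjusted p 0.185).

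**Figure D1:**
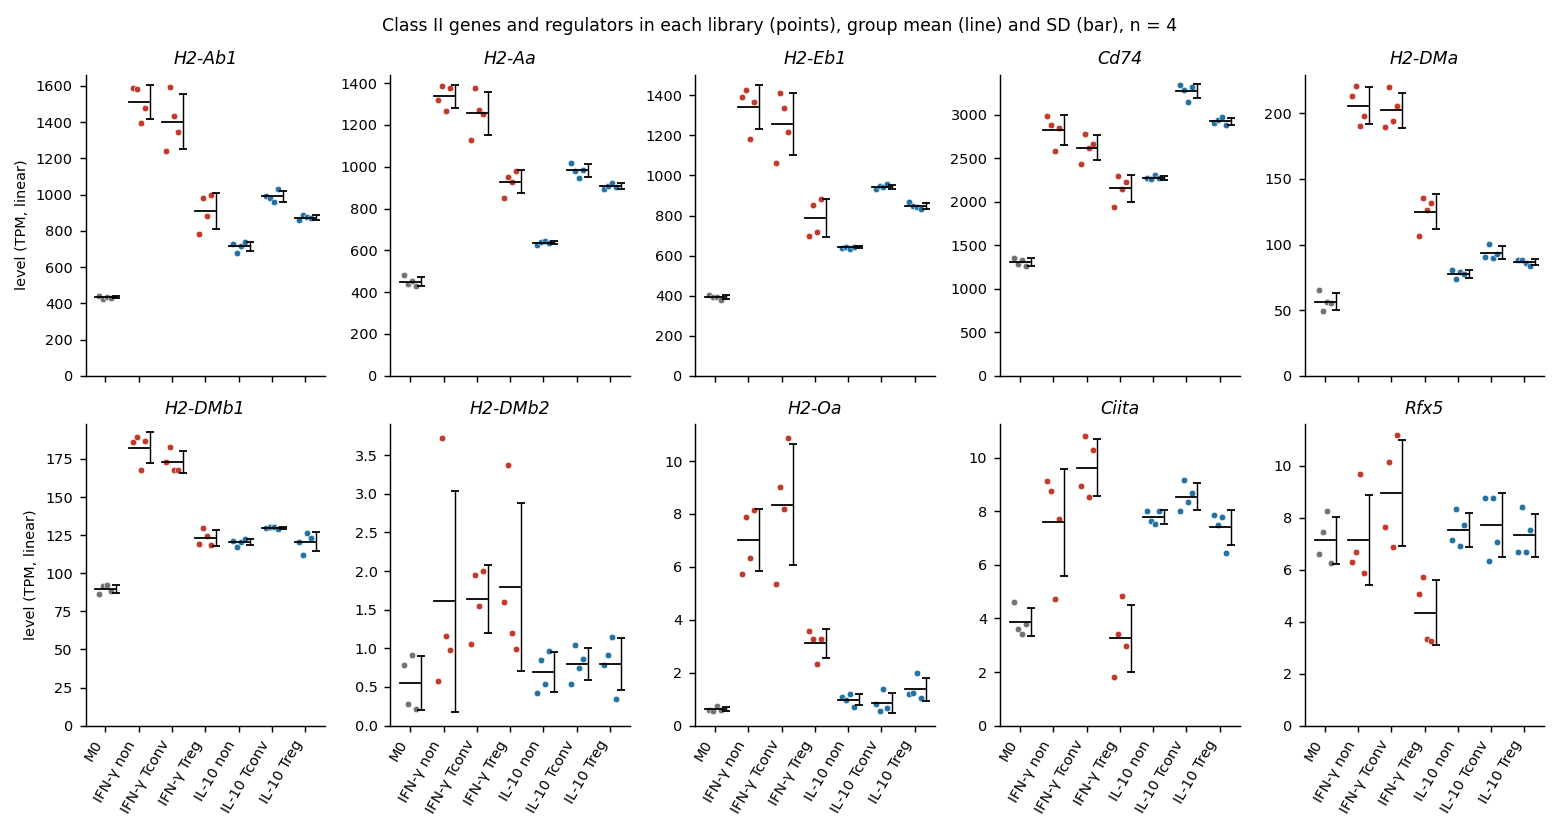
Level in TPM (linear axis from 0) of each of the 10 genes in the 28 libraries, with points for libraries, lines for group means and bars for SD (n = 4). H2-Ab1 is highest in IFN-γ non-phagocytic libraries (1512 TPM) and Ciita in IFN-γ Tconv-phagocytic libraries (9.63 TPM), and both are lower in IFN-γ Treg-phagocytic libraries (911 and 3.26 TPM).

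Markers of other cells moved in the same comparison. All 8 tested T cell markers of 9 were called higher under IFN-γ. The 6 B cell markers summed to 1.75 to 2.74 TPM in M0 and 5.85 to 10.6 TPM in IFN-γ non-phagocytic libraries, with 3 of the 4 tested called higher. The 8 dendritic cell markers summed to 35.5 to 40.4 and 31.0 to 45.5 TPM, with Flt3 and Siglech at 0 in all 4 IFN-γ non-phagocytic libraries. Of the 3 tested, Clec9a (0.123 to 5.65 TPM in the mean) and Ccr7 (2.06 to 11.7 TPM) were called higher and Itgax, most of the sum, lower (35.3 to 20.5 TPM), all 3 named after their values were seen. Of the 7 macrophage markers, 2 were called higher and 5 lower. The part of all these markers in the rise of class II genes was not tested. In bulk libraries, fewer cells of a type and less RNA per cell cannot be told apart.

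IL-10 non-phagocytic macrophages rose over M0 in 7 of the 10 genes, and 0 fell. Of all genes tested, 26.6% were called here. The members' median log2 fold change was 0.46, against 0.00 over all genes, and the rises lay between 1.33- and 1.78-fold. Ciita was at 7.99, 7.63, 7.52 and 8.02 TPM, above every M0 library, a 1.78-fold rise (limma log2 difference 0.83, SE 0.082, adjusted p 0.000115). Cd74 was at 2271, 2258, 2308 and 2270 TPM, a 1.72-fold rise (limma log2 difference 0.78, adjusted p 9.68e-08). The spread between these 4 libraries was small beside the step from M0. H2-Ab1 (1.63-fold, limma adjusted p 4.59e-07), H2-Eb1 (1.62-fold, 6.22e-08) and H2-Aa (1.40-fold, 9.12e-06) rose, with H2-Ab1 at 714 ± 25.9 TPM (SD, n = 4). H2-DMa rose 1.36-fold (limma adjusted p 0.00248) and H2-DMb1 1.33-fold (2.21e-05). Rfx5 (log2 0.06), H2-DMb2 (log2 0.13) and H2-Oa (limma log2 difference 0.26, adjusted p 0.0740) did not pass the test, though H2-Oa did without IL-10 non-phagocytic library 4 (0.0269). No T cell or B cell marker was called in this comparison, but 5 of 7 macrophage markers were called higher and 2 lower. Of 3 tested dendritic cell markers, 0 were higher and 1 was lower. The part of these shifts in the result was not tested.

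The cytokines were also compared directly, in non-phagocytic macrophages. Class II chains, Cd74, H2-DMa, H2-DMb1 and H2-Oa were all higher under IFN-γ, 7 of 10 genes, and 0 were lower. Of all genes tested, 50.6% were called, and the median log2 fold change was 1.17 for members and 0.03 for all genes. H2-Ab1 was 2.68-fold higher (limma adjusted p 6.81e-08), H2-DMa 3.33-fold (5.56e-08) and Cd74 1.57-fold (4.02e-06). Scaling added 0.344 to the log2 difference of abundant genes, and all 7 calls were also made without scaling. Ciita was at 7.59 ± 1.99 TPM under IFN-γ and 7.79 ± 0.25 TPM under IL-10 (SD, n = 4), with overlapping groups (limma log2 difference 0.24, SE 0.19, adjusted p 0.321; without scaling -0.07, adjusted p 0.770). Its difference passed the test without IFN-γ non-phagocytic library 3, the library at 4.74 TPM (limma log2 difference 0.43, adjusted p 0.00843). Markers of other cells moved in this comparison too, with 8 of 8 tested for T cells, 3 of 4 for B cells and 3 of 3 for dendritic cells called higher under IFN-γ. Of the 7 macrophage markers, 2 were called higher and 4 lower. The part of all these markers in the difference was not tested. These 3 comparisons share their non-phagocytic and M0 libraries.

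**Figure D2:**
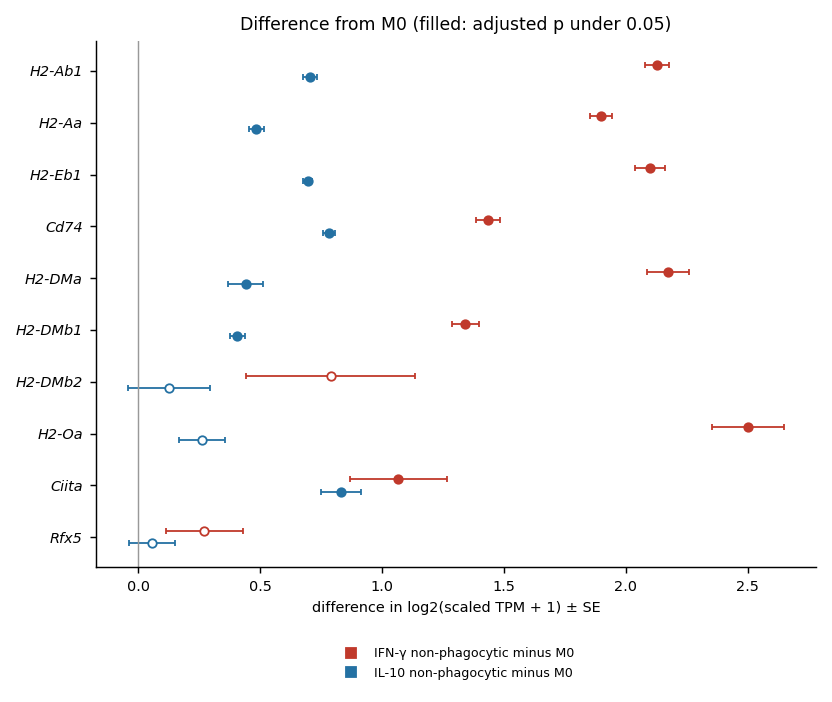
Difference in log2(scaled TPM + 1) from M0 for IFN-γ (red) and IL-10 (blue) non-phagocytic libraries, with bars for SE and filled points where the adjusted p is under 0.05. H2-Ab1 stands at 2.13 and 0.70, whereas Ciita stands at 1.07 and 0.83.

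The genes that act upstream of Ciita moved with both cytokines. Of 9 such inputs (receptor subunits, kinases, factors and repressors), 5 were called higher and 2 lower under IFN-γ against M0, and 7 higher and 0 lower under IL-10, where 52.3% and 26.6% of all genes tested were called. Jak1, 1 of the 2 lower under IFN-γ, kept its call only without IFN-γ non-phagocytic library 3 among the 8 libraries (limma adjusted p 0.0562 to 0.0665 without any other). Jak2, higher under IL-10, lost its call without M0 library 2 or 4 or IL-10 non-phagocytic library 2, 3 or 4 (0.0537 to 0.0658). Irf1, a factor that binds the IFN-γ-responsive Ciita promoter, was at 46.4 ± 2.85 TPM in M0 and 199 ± 11.7 TPM under IFN-γ (SD, n = 4; limma log2 difference 2.40, adjusted p 4.36e-08). Socs1, a feedback inhibitor of the IFN-γ receptor, rose from 0.965 to 4.74 TPM in the mean (limma log2 difference 1.73, adjusted p 7.24e-05). Under IL-10, Prdm1, a repressor of Ciita, rose (limma log2 difference 0.63, adjusted p 0.000347), as did the receptor subunit Ifngr1 (limma log2 difference 0.54, adjusted p 1.11e-05) and Irf1, the latter to 68.3 ± 1.84 TPM (SD, n = 4; limma log2 difference 0.53, adjusted p 2.32e-05). Between the cytokines, 5 of the 9 inputs were higher and 3 lower under IFN-γ.

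Downstream, H2-Ob, the β partner of H2-Oa, was at 2.21 ± 0.91 TPM in M0 and 22.9 ± 1.77 TPM under IFN-γ (SD, n = 4; limma log2 difference 3.20, adjusted p 1.63e-06). H2-Oa and H2-Ob are classic B cell genes, so the B cell marker sums above stand beside both. Under IL-10 the largest rise on these lists was in March1, a membrane ubiquitin ligase that sends surface class II to degradation. It was at 11.5, 11.95, 12.1 and 11.2 TPM in M0 and at 35.6, 36.1, 34.3 and 34.4 TPM under IL-10 (limma log2 difference 1.49, adjusted p 5.60e-08). The groups were well apart, and under IFN-γ March1 was at 10.7 ± 1.86 TPM. The other ligase, March8, was called lower under IFN-γ than in M0, at 19.6 ± 4.10 against 48.1 ± 1.77 TPM (SD, n = 4). The counts that follow stand beside 52.3% of all genes tested called under IFN-γ and 26.6% under IL-10, against M0. Of 7 antigen processing genes, 4 were called higher and 3 lower under IFN-γ (Lgmn, 0.21 higher on the log2 scale, was at -0.12 without scaling), where the lysosomal protease Ctsd was lowest (limma log2 difference -1.001, adjusted p 1.12e-07). Under IL-10, 5 were higher and 2 lower, with Lgmn (limma log2 difference 0.90, adjusted p 9.32e-09), Ctsl (0.67, 6.43e-08) and Ctsb (0.54, 1.34e-06) the highest. Of the 6 other promoter factors, 1 was called higher and 2 lower under IFN-γ. The higher was Nfyb, an NF-Y subunit (limma log2 difference 1.25, adjusted p 8.98e-05). Under IL-10, Nfyb was again the 1 called higher, and 0 were lower, but this call was lost without M0 library 1, 3 or 4 or IL-10 non-phagocytic library 1 or 3 (limma adjusted p 0.0677 to 0.0807). H2-Eb2 was under 1 TPM in every library and was not tested.

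Among IFN-γ macrophages, those that had taken up Treg cells had lower class II transcripts than those that had taken up Tconv cells. Of the 10 genes, 7 fell and 0 rose: Ciita, H2-Ab1, H2-Aa, H2-Eb1, H2-DMa, H2-DMb1 and H2-Oa. Of all genes tested, 12.8% were called in this comparison, and the median log2 fold change was -0.52 over the members and 0.04 over all genes. For 9 of the 10 genes every Treg-phagocytic library was below every Tconv-phagocytic library, and H2-DMb2 was the exception. Such a separation downward was seen in 13.7% of all genes tested. On scaled values it was seen in 8 of the 10 genes, no longer in Cd74, and in 9.91% of all genes. Scaling added 0.128 to the log2 differences of abundant genes and less to low genes, so each fall is smaller than without it.

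Ciita was at 1.82, 3.40, 4.83 and 2.97 TPM in Treg-phagocytic libraries and at 8.93, 10.8, 8.52 and 10.3 TPM in Tconv-phagocytic libraries. No value of one group reached the other, and the Treg-phagocytic range overlapped that of M0, 3.42 to 4.63 TPM. The fitted ratio was 0.411 (limma log2 difference -1.28, SE 0.24, adjusted p 0.0118). Rfx5 was at 5.08, 5.72, 3.33 and 3.24 TPM against 7.64, 10.1, 6.87 and 11.2 TPM. These groups did not overlap, but the test was not passed (limma log2 difference -0.81, SE 0.23, adjusted p 0.0535). Without Treg-phagocytic library Ax647-2, the shallowest of all 28, it was passed (limma adjusted p 0.0434).

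H2-Ab1 was at 781, 982, 880 and 998 TPM in Treg-phagocytic libraries and at 1240, 1593, 1433 and 1346 TPM in Tconv-phagocytic libraries (limma log2 difference -0.50, SE 0.11, adjusted p 0.0209). H2-Eb1 was at 788 ± 92.5 against 1257 ± 154 TPM (SD, n = 4; limma log2 difference -0.55, adjusted p 0.0192), and H2-Aa at 928 ± 54.7 against 1256 ± 102 TPM (SD, n = 4; limma log2 difference -0.31, adjusted p 0.0312). The chains thus fell less than Ciita and stayed above their M0 levels in every library. Cd74 was at 1939, 2298, 2150 and 2232 TPM against 2434, 2782, 2615 and 2660 TPM, without overlap in TPM, but it did not pass the test (limma log2 difference -0.16, SE 0.071, adjusted p 0.197). It did so without scaling (limma log2 difference -0.28, adjusted p 0.0199) and in a model of all libraries (0.0182).

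The exchanger and its inhibitor fell as well. H2-DMa was at 106, 136, 126 and 132 TPM against 190, 220, 194 and 206 TPM (limma log2 difference -0.57, SE 0.096, adjusted p 0.00802). H2-DMb1 was at 123 ± 5.03 against 173 ± 7.11 TPM (SD, n = 4; limma log2 difference -0.36, adjusted p 0.00532). H2-Oa was at 3.56, 3.29, 2.33 and 3.27 TPM against 5.35, 9.02, 8.19 and 10.9 TPM (limma log2 difference -1.08, SE 0.22, adjusted p 0.0178). Even the highest Treg-phagocytic library was below the lowest Tconv-phagocytic one. The falls of Ciita, H2-DMa and H2-DMb1 kept their call when any 1 library was left out. Those of H2-Ab1 and H2-Eb1 lost it without Tconv-phagocytic BV421-2, Ax647-1 or Ax647-2 or Treg-phagocytic BV421-1 (limma adjusted p 0.0521 to 0.0618 and 0.0519 to 0.0616), that of H2-Aa without these or Treg-phagocytic Ax647-1 or Ax647-2 (0.0534 to 0.0797), and that of H2-Oa without the same 3 Tconv-phagocytic libraries (0.0513 to 0.0576).

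**Figure D3:**
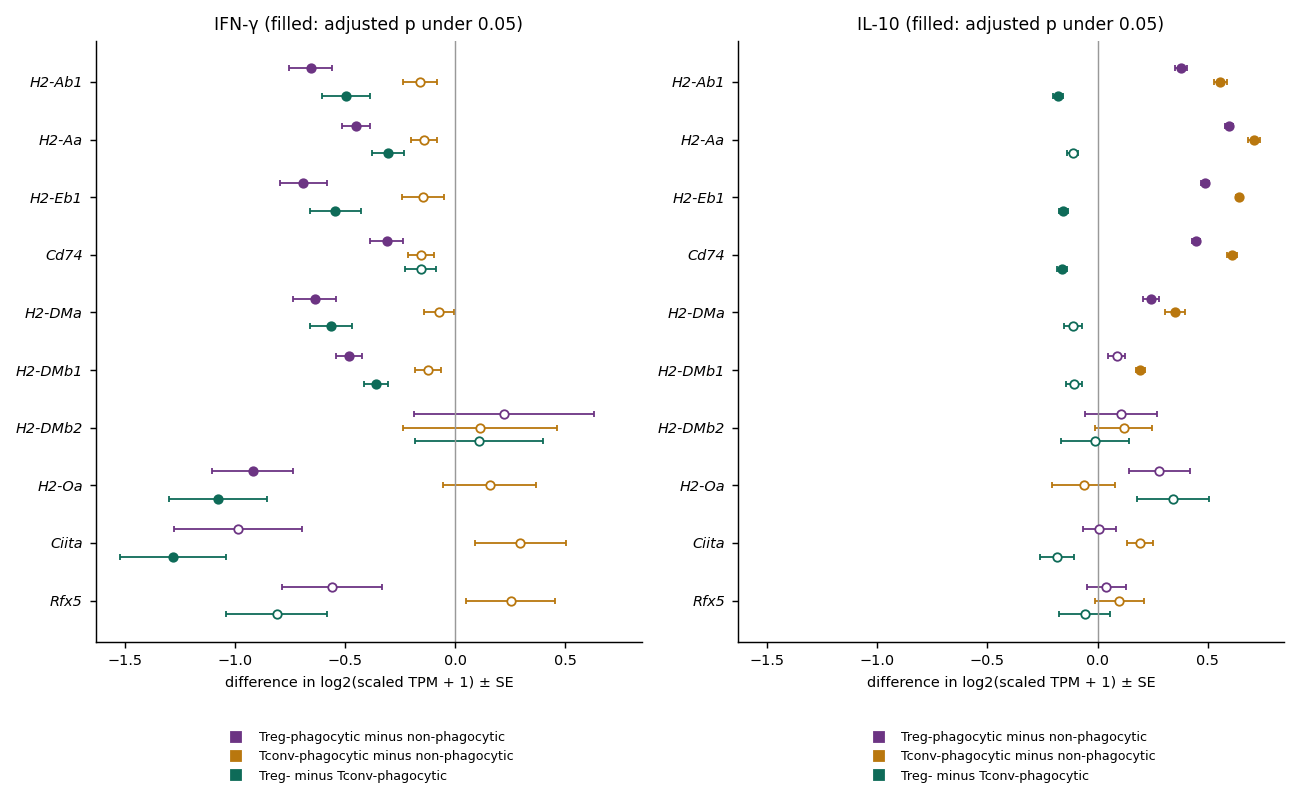
Difference in log2(scaled TPM + 1), with bars for SE, between the sorted populations under IFN-γ (left) and IL-10 (right); filled points have an adjusted p under 0.05. Treg-phagocytic minus non-phagocytic H2-Ab1 stands at -0.66 under IFN-γ and at 0.38 under IL-10.

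Irf1 and Irf2, which act upstream of Ciita, fell in the same comparison, and most of the lysosomal processing genes rose. Of the 9 inputs, 2 were called lower and 0 higher. Irf1 was at 88.5, 115, 96.9 and 119 TPM against 200, 295, 245 and 236 TPM (limma log2 difference -1.08, adjusted p 0.00302). The groups did not overlap, and all 4 Treg-phagocytic libraries stayed above the highest M0 library. Irf2, which cooperates with Irf1 at Ciita, was at 33.8 ± 5.97 against 67.0 ± 7.13 TPM (SD, n = 4; limma log2 difference -0.85, adjusted p 0.00702). The receptor and kinase genes Ifngr1, Ifngr2, Jak1 and Jak2 were not called, and Socs1 was at 4.84 ± 1.54 against 4.78 ± 1.03 TPM (SD, n = 4).

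Of the 7 processing genes, 6 were called higher and 0 lower, the opposite direction to the class II genes. Ctsl, a lysosomal protease, was at 1535 ± 49.7 against 1262 ± 59.8 TPM (SD, n = 4; limma log2 difference 0.41, adjusted p 0.00269), and Ctsb lost its call without scaling, as did Nfya below. Cst3, another of the 6, lost its call without scaling (limma log2 difference 0.14, adjusted p 0.104) and without any 1 library other than Tconv-phagocytic BV421-1 and Treg-phagocytic Ax647-1 (0.0604 to 0.0769). Of the 6 promoter factors, Nfya was called higher (limma log2 difference 0.35, adjusted p 0.0427) and Nfyb lower (limma log2 difference -0.58, adjusted p 0.0352). Each of these calls held without only 1 of the 8 libraries, Treg-phagocytic BV421-2 for Nfya and Tconv-phagocytic Ax647-2 for Nfyb (leaving out any other gave limma adjusted p 0.0748 to 0.107 and 0.0517 to 0.0984). H2-Ob was at 11.96 ± 3.28 against 20.8 ± 6.29 TPM (SD, n = 4) and was not called, nor was either of the ubiquitin ligases.

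**Figure D4:**
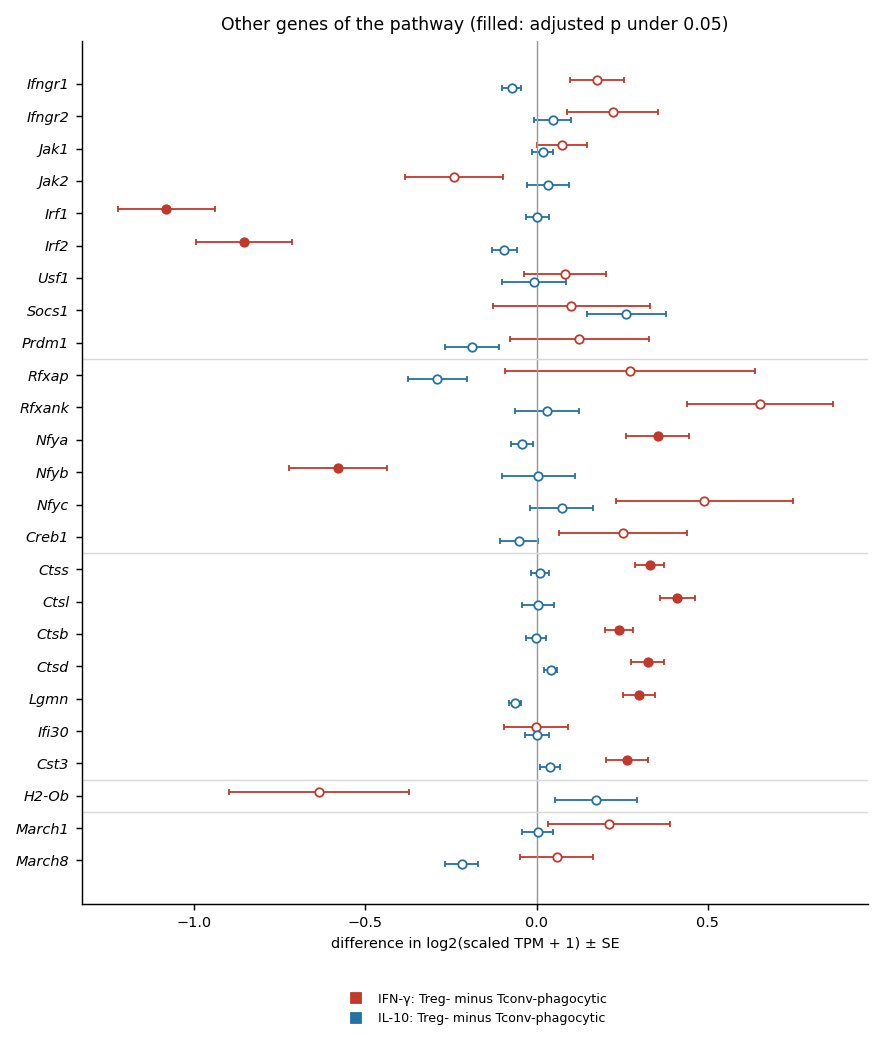
Treg- minus Tconv-phagocytic difference in log2(scaled TPM + 1), with bars for SE, for 25 other genes of the pathway under IFN-γ (red) and IL-10 (blue); from the top, inputs to Ciita, promoter factors, processing genes, H2-Ob and ubiquitin ligases. Filled points have an adjusted p under 0.05: Irf1 and Irf2 stand at -1.08 and -0.85 under IFN-γ, and no gene is filled under IL-10.

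T cell markers were not called between these groups, 0 of 8, and summed to 399 to 600 TPM in Treg-phagocytic and 391 to 518 TPM in Tconv-phagocytic libraries. B cell markers summed to 10.7 to 14.7 and 7.52 to 12.6 TPM, with 1 of 4 called higher and 0 lower. Dendritic cell markers summed to 32.6 to 35.2 and 26.8 to 41.1 TPM (Flt3 at 0 in all Tconv-phagocytic libraries), with 1 of 3 called lower (Clec9a, named after its value was seen, at 1.12 against 4.80 TPM in the mean). Macrophage markers summed to 20580 to 21080 and 16350 to 18670 TPM, with 4 of 7 called higher and 1 lower. In the mean, Lyz2, most of the sum, was at 18160 against 15050 TPM and Mertk at 15.2 against 24.7 TPM. The part of these shifts in the class II result was not tested. Treg-phagocytic libraries were also the shallower, at 11.0% to 20.1% of the deepest library against 21.0% to 24.1%.

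Against non-phagocytic macrophages under IFN-γ, Treg uptake again came with lower class II levels. Of the 10 genes 7 fell and 0 rose, and 8.32% of all genes tested were called. The members' median log2 fold change was -0.60, against 0.04 over all genes. H2-Ab1 fell to 911 ± 101 from 1512 ± 91.9 TPM (SD, n = 4; limma log2 difference -0.66, SE 0.098, adjusted p 0.00676). H2-Eb1 fell by 0.69 (limma adjusted p 0.00799), H2-DMa by 0.64 (0.00758), H2-DMb1 by 0.48 (0.00327) and H2-Aa by 0.45 (0.00552) on the log2 scale. None of these 5 calls was lost when any 1 library was left out. H2-Oa fell by 0.92 (limma adjusted p 0.0208), a call lost without non-phagocytic library 2 (0.0622) or 4 (0.0626). Cd74 fell by 0.31 (limma adjusted p 0.0454), a call that held only without non-phagocytic library 3 and was lost without any other of the 8 (0.0518 to 0.114). Ciita was lower in the mean, 3.26 against 7.59 TPM, but the non-phagocytic library at 4.74 TPM lay within the Treg-phagocytic range, and the test was not passed (limma log2 difference -0.99, SE 0.29, adjusted p 0.0805). It was passed with all libraries in 1 model (limma adjusted p 0.000122) and with a variance weight per group (0.00325). Rfx5 was also not called (limma log2 difference -0.56, adjusted p 0.185). Irf1 and Irf2 were the 2 inputs called lower, and 0 were higher, while 5 of 7 processing genes were higher and 0 lower. Of the markers, 5 of 7 for macrophages were called higher and 1 lower, and 0 for T cells, B cells or dendritic cells were called by limma. Their part in the result was not tested.

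Tconv uptake under IFN-γ gave 0 calls among the 10 genes against non-phagocytic macrophages, and every member's groups overlapped. The groups failed to overlap in only 3.66% of all genes tested. Of all genes tested, 0.00734% were called by limma, that is 1 gene, with 874 at an unadjusted p under 0.05. The median log2 fold change was -0.10 over the members and 0.00 over all genes. H2-Ab1 was at 1403 ± 150 against 1512 ± 91.9 TPM (SD, n = 4; limma log2 difference -0.16, SE 0.078, adjusted p 0.768). Ciita was at 9.63 ± 1.08 against 7.59 ± 1.99 TPM (SD, n = 4; limma log2 difference 0.30, SE 0.21, adjusted p 0.827). These standard errors set the size of change that could have been seen, and do not show that the groups are alike. The 3 IFN-γ comparisons share libraries, so they are not independent of each other.

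Under IL-10, uptake of either kind of T cell came with higher class II levels. After Tconv uptake, 6 of the 10 genes rose against non-phagocytic macrophages and 0 fell, with 6.14% of all genes tested called and a median log2 fold change of 0.27 over members and 0.01 over all genes. H2-Aa was at 1020, 977, 947 and 987 TPM against 626, 642, 643 and 637 TPM, a 1.64-fold rise (limma log2 difference 0.71, SE 0.025, adjusted p 4.17e-06). Cd74 was at 3342, 3280, 3152 and 3318 TPM, the highest group mean of this gene in unscaled TPM, a 1.53-fold rise (limma log2 difference 0.61, SE 0.022, adjusted p 4.27e-06). Groups were far apart in both. H2-Eb1 rose 1.56-fold (limma adjusted p 2.98e-07), H2-Ab1 1.47-fold (6.05e-05), H2-DMa 1.28-fold (0.00312) and H2-DMb1 1.14-fold (0.00189). Ciita was not called (8.55 ± 0.50 against 7.79 ± 0.25 TPM, SD, n = 4; limma log2 difference 0.19, SE 0.059, adjusted p 0.104).

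After Treg uptake, 5 of the 10 rose and 0 fell, with 11.4% of all genes tested called and a median log2 fold change of 0.26 over members and 0.00 over all genes. H2-Aa was at 894, 908, 924 and 903 TPM, a 1.51-fold rise over non-phagocytic libraries (limma log2 difference 0.60, SE 0.019, adjusted p 2.79e-06). H2-Eb1 rose 1.40-fold (limma adjusted p 7.70e-06), Cd74 1.36-fold (7.70e-06), H2-Ab1 1.30-fold (0.000158) and H2-DMa 1.18-fold (0.00425). No non-phagocytic library reached any Treg-phagocytic one for these 5 genes. The groups did not overlap in 21.6% of all genes tested, with Treg-phagocytic libraries the lower in 16.2% of all genes. H2-DMb1 was not called (limma log2 difference 0.09, adjusted p 0.208) except without Treg-phagocytic library Ax647-2 (0.0373). Ciita was at 7.40 ± 0.66 against 7.79 ± 0.25 TPM (SD, n = 4; limma log2 difference 0.01, SE 0.075, adjusted p 0.965), so the class II chains were higher without a call for their coactivator. T cell markers stood beside these rises, at 127 to 148 TPM after Treg uptake, 74.2 to 108 TPM after Tconv uptake and 54.0 to 65.7 TPM in non-phagocytic libraries, with 7 of 8 and 3 of 8 called higher against the latter. B cell markers summed to 4.27 to 6.36, 3.33 to 4.60 and 2.17 to 3.90 TPM, with 2 of 4 and 1 of 4 called higher. Of 7 macrophage markers, 3 were higher and 3 lower after Treg uptake, and 3 higher and 0 lower after Tconv uptake. Of 3 tested dendritic cell markers, 1 was higher and 1 lower, and 0 higher and 1 lower, in the same order. Their part in the result was not tested. Of the 9 inputs to Ciita, 1 was higher and 1 lower after Treg uptake and 1 higher and 0 lower after Tconv uptake, and of the 7 processing genes 4 were higher and 1 lower, and 3 higher and 1 lower, in the same order.

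Between the phagocytic populations under IL-10, H2-Ab1, H2-Eb1 and Cd74 were lower after Treg than after Tconv uptake, 3 of the 10 genes, and 0 were higher. Of all genes tested 1.39% were called, and the median log2 fold change was -0.11 over the members and 0.00 over all genes. H2-Ab1 was at 873 ± 12.2 against 991 ± 29.5 TPM (SD, n = 4; limma log2 difference -0.18, SE 0.024, adjusted p 0.00885), H2-Eb1 at 847 ± 14.2 against 944 ± 10.2 TPM (limma log2 difference -0.15, adjusted p 0.00776) and Cd74 at 2923 ± 40.8 against 3273 ± 84.5 TPM (limma log2 difference -0.16, adjusted p 0.0143). In 7 of the 10 genes every Treg-phagocytic library was below every Tconv-phagocytic library, as in 4.81% of all genes tested. The call of Cd74 was lost without Tconv-phagocytic Ax647-2 (limma adjusted p 0.0574) or Treg-phagocytic BV421-2 (0.0529), and all 3 were lost when 1 model held all libraries (0.258 to 1). Of the listed inputs to Ciita, promoter factors, processing genes and ubiquitin ligases, 0 were called by limma, and 1 of 8 T cell markers was called higher.

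Whether the effect of uptake differed between the cytokines was tested as a difference of differences (IFN-γ effect minus IL-10 effect) in the 4 groups concerned. For Treg-phagocytic against non-phagocytic macrophages, 8 of the 10 genes differed, all lower under IFN-γ, where 9.35% of all genes tested were called. The class II chains and Cd74 fell under IFN-γ and rose under IL-10. The difference was -1.18 on the log2 scale for H2-Eb1 (SE 0.11, limma adjusted p 7.31e-06), -1.05 for H2-Aa (2.49e-07), -1.03 for H2-Ab1 (1.24e-05) and -0.76 for Cd74 (1.78e-05). H2-Oa (-1.20, limma adjusted p 0.00452), H2-DMa (-0.88, 7.34e-05) and H2-DMb1 (-0.57, 0.000129) differed as well. Ciita differed by -0.99 (limma adjusted p 0.0487), but that call was kept only without IFN-γ non-phagocytic library 3 or IFN-γ Treg-phagocytic BV421-1, and lost without any other of the 16 libraries (0.0513 to 0.0901). Among the other genes of the pathway, H2-Ob (-1.06, limma adjusted p 0.0163), Irf1 (-0.94, 0.000122) and Irf2 (-0.60, 0.0144) differed in the same direction and Ctsl (0.67, 6.44e-06) and Ctss (0.23, 0.000243) in the other. Of the markers, 3 of 8 tested for T cells differed downward (median log2 difference -0.75 over the 8), and 4 of 7 for macrophages differed upward and 1 downward, and their part in the result was not tested.

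For Treg- against Tconv-phagocytic macrophages, the contrast differed between cytokines in 5 of the 10 genes, with 13.6% of all genes tested called. Ciita (-1.10, SE 0.25, limma adjusted p 0.00785), H2-Oa (-1.42, 0.00357), H2-DMa (-0.46, 0.00994), H2-DMb1 (-0.25, 0.0226) and H2-Eb1 (-0.39, 0.0413) were lower under IFN-γ on the log2 scale. H2-DMb1 lost this call without IL-10 Treg-phagocytic BV421-1 (0.0539) or BV421-2 (0.0509), and H2-Eb1 without any 1 of 13 of the 16 libraries (0.0519 to 0.0842). H2-Ab1 (-0.32, limma adjusted p 0.0768) was not called, and was called without IFN-γ Tconv-phagocytic BV421-1, Treg-phagocytic Ax647-2 or Treg-phagocytic BV421-2 (0.0293 to 0.0458). Cd74 was not called, with an estimate near 0 (0.0043, SE 0.075, limma adjusted p 0.981). Irf1 (-1.08, limma adjusted p 0.000199), Irf2 (-0.76, 0.00272) and Nfyb (-0.59, 0.0472) were lower and Ctsl (0.41, 0.00115) and Nfya (0.40, 0.0139) higher. The call of Nfyb was kept without Ax647-2 of IFN-γ Tconv-, IFN-γ Treg- or IL-10 Treg-phagocytic libraries and lost without any other of the 16 (0.0505 to 0.1003), and that of Nfya without scaling (0.115). Of the macrophage markers, 5 of 7 differed upward and 1 downward, and 1 of 3 for dendritic cells downward, with their part not tested. For Tconv-phagocytic against non-phagocytic macrophages, 6 of the 10 differed, again lower under IFN-γ, with 1.78% of all genes tested called: H2-Aa (-0.85, limma adjusted p 5.33e-06), H2-Eb1 (-0.79, 0.00066), Cd74 (-0.76, 7.50e-06), H2-Ab1 (-0.72, 0.000552), H2-DMa (-0.42, 0.0171) and H2-DMb1 (-0.32, 0.02001). The last was lost without IL-10 non-phagocytic library 2 (0.05003, just over the threshold of 0.05) and without scaling (0.151), as was H2-DMa without scaling (0.105).

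The members did not keep fixed proportions to each other. Cd74 stood at 3.08 ± 0.026 times the mean of H2-Aa, H2-Ab1 and H2-Eb1 in M0 and at 3.34 to 3.43 times in the IL-10 groups, but at 2.02 ± 0.050 times in IFN-γ non-phagocytic and 2.02 ± 0.11 times in IFN-γ Tconv-phagocytic libraries (SD, n = 4). IFN-γ Treg-phagocytic libraries lay between, at 2.47 ± 0.090 (SD, n = 4), and overlapped neither side. The ratio of H2-DMa to H2-DMb1 was under 0.79 in every M0 and IL-10 library and over 0.89 in every IFN-γ library. H2-Ab1 stood at 113 ± 13.9 times Ciita in M0 (SD, n = 4). Under IFN-γ it stood at 210 ± 56.7 times in non-phagocytic, 146 ± 16.0 times in Tconv-phagocytic and 309 ± 103 times in Treg-phagocytic libraries (SD, n = 4). The non-phagocytic mean includes library 3 at 294.6, against 173.7, 180.9 and 191.5 in the others. Under IL-10 the ratio was 91.6 ± 2.55 in non-phagocytic, 116 ± 7.12 in Tconv-phagocytic and 119 ± 11.7 in Treg-phagocytic libraries (SD, n = 4). These ratios are taken within a library, so scaling does not touch them, and they are given with no test.

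**Figure D5:**
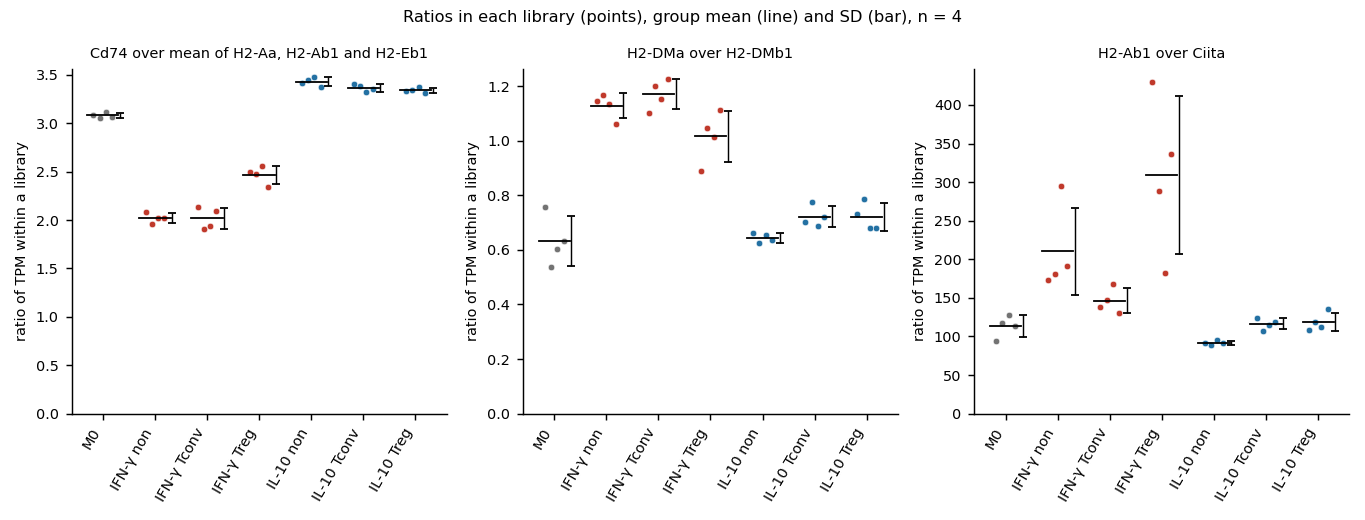
Ratios of TPM within each library (points; line, group mean; bar, SD, n = 4). Cd74 stands near 2.02 times the class II chains in IFN-γ non-phagocytic libraries and at 3.43 times in IL-10 non-phagocytic libraries.

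In sum, the 10 genes made up 0.274% of all TPM in M0, 0.743% in IFN-γ non-phagocytic, 0.694% in IFN-γ Tconv-phagocytic and 0.504% in IFN-γ Treg-phagocytic libraries, and 0.448%, 0.643% and 0.577% in the matching IL-10 groups. The order of groups by mean unscaled TPM was the same for H2-Ab1 and H2-Aa. IFN-γ non-phagocytic and IFN-γ Tconv-phagocytic libraries were highest and overlapped. Next came IL-10 Tconv-, IFN-γ Treg- and IL-10 Treg-phagocytic libraries, each overlapping its neighbour. Then came IL-10 non-phagocytic and M0 libraries, each without overlap. Part of this order depended on scaling. On scaled log2 values, H2-Aa was at 9.941 to 10.22 in IFN-γ Treg-phagocytic and 9.796 to 9.907 in IL-10 Tconv-phagocytic libraries. Cd74 had another order in TPM, with IL-10 Tconv-phagocytic libraries highest and apart from the rest. On scaled log2 values these were at 11.53 to 11.62 and overlapped IFN-γ non-phagocytic libraries, at 11.48 to 11.72. In TPM, Ciita was lowest in IFN-γ Treg-phagocytic and M0 libraries, which overlapped. The other 5 groups stood above M0, each overlapping its neighbour. For Rfx5 in TPM, the 6 highest groups each overlapped their neighbour, and IFN-γ Treg-phagocytic libraries stood below. On scaled log2 values the latter, at 2.295 to 2.972, overlapped M0 libraries, at 2.728 to 3.067. H2-Oa had the widest range in TPM, 13.4-fold from the highest group mean to the lowest.

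Over the 28 libraries, levels of H2-Ab1 and H2-Eb1 moved together most closely among the members (Pearson r 0.995 on the log2 scale), and with group means removed the value was 0.900. Ciita and H2-Ab1 gave 0.611 and 0.534 in the same order, and Ciita and Rfx5 0.482 and -0.403. Of 9402 other genes, those with the pattern closest to the mean log2 level of H2-Aa, H2-Ab1, H2-Eb1 and Cd74 were C3 (complement component, r 0.962), Apobec3 (cytidine deaminase, 0.961), Ly86 (0.951), Nfkbia (inhibitor of NF-κB, 0.950), Icam1 (adhesion molecule, 0.944), C9orf72 (0.936), Tspan3 (0.933) and Cd274 (PD-L1, 0.931). Those closest to Ciita were Flcn (0.906), Pde1b (0.897), Tbc1d20 (0.888), Cd300lf (0.880) and Dnajb14 (0.879), none of them shared with the first set. The 28 points share cytokine, uptake and depth, so these values are descriptions over 7 groups and carry no test.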

How the data were processed

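Per the labels' protocols, RNA was extracted with RNAiso PLUS, poly(A) RNA was used and libraries were made with a NEBNext Ultra II Directional kit. The deposited values are TPM per Ensembl gene ID, written with 2 decimals, 1 file per library. The submitters' processing notes name STAR, RSEM and mm10; versions and annotation are not given in the sources used here. Coordinates are from GENCODE vM21, of the same build. Of 55487 IDs, 55141 had a symbol. Of 378 pairs of libraries, 0 were identical.

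TPM were divided by a trimmed mean of log2 ratios (30% of ratios and 5% of levels trimmed), and log2(value + 1) was fitted with limma 3.58.1 (R 4.3.3; lmFit, eBayes with trend) on only the groups compared. Weights fitted per group were 1.64 to 2.20 for M0 and IL-10 and 0.329 to 0.456 for IFN-γ, where libraries vary more. In 9 group comparisons and 3 differences of differences, 13631 genes reaching 1 TPM in 4 or more libraries were tested. The call threshold was a Benjamini-Hochberg adjusted p of 0.05. The fit was tested on simulated data, with the outcome not reported here.

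The members, gene lists and tests were chosen with earlier results of these data known. Listed genes are named where they were called in a comparison in which Ciita was called, at most 6 by size; others named were chosen after their values were seen. The lists were inputs to Ciita (9 genes; 1 further listed gene is not reported here), promoter factors (6), antigen processing (7), H2-Ob and H2-Eb2, ubiquitin ligases (2), and markers of macrophages (7), T (9), B (6) and dendritic cells (8). H2-DMb1 and H2-DMb2 were aligned with Biopython 1.88. Alternatives were other scalings, pseudocounts of 0.1 and 5, filters, models and blocks, single dyes and each library left out.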

Additional observations from a re-analysis of the deposited data

Results flagged for a closer look

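One of 70 checks of a member in a group found a library apart from the other 3: H2-DMb1 in IFN-γ non-phagocytic library 3, at 167.6 TPM against 186 to 189 TPM. Chance gives about 1 in 20 such checks.

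The effect of uptake differed between IFN-γ and IL-10 in 19 tests of a difference of differences (limma, log2 scale, IFN-γ effect minus IL-10 effect). For Treg-phagocytic against non-phagocytic libraries these were Ciita (-0.99), H2-Ab1 (-1.03), H2-Aa (-1.05), H2-Eb1 (-1.18), H2-DMa (-0.88), H2-DMb1 (-0.57), H2-Oa (-1.20) and Cd74 (-0.76). For Treg- against Tconv-phagocytic libraries they were Ciita (-1.10), H2-Eb1 (-0.39), H2-DMa (-0.46), H2-DMb1 (-0.25) and H2-Oa (-1.42). For Tconv-phagocytic against non-phagocytic libraries they were H2-Ab1 (-0.72), H2-Aa (-0.85), H2-Eb1 (-0.79), H2-DMa (-0.42), H2-DMb1 (-0.32) and Cd74 (-0.76). Each of the 10 genes was tested in all 3 differences. Of all genes tested, 9.35%, 13.6% and 1.78% were called, in the same order. With each of 16 libraries left out in turn, Ciita (Treg-phagocytic against non-phagocytic) lost its call in 14 runs. H2-Eb1 (Treg- against Tconv-phagocytic) lost its call in 13, and other losses are given above.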

How the results depend on the processing

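Counts of called members are given beside the main count. Treg- against Tconv-phagocytic libraries under IFN-γ (7 called) gave 4 with no filter on low values, 0 with only BV421 and 0 with only Ax647 libraries (2 against 2), and 3 to 7 with 1 library left out. Under IL-10 (3 called) the count was 0 with all libraries in 1 model, 0 with a replicate block by library names, also with a GC and length correction, 1 with a replicate block by titles, and 0 with either dye alone. The difference of these differences (5 called) gave 8 without scaling, 0 with either dye alone and 3 to 7 with 1 library left out. In the other 9 tests, the count stayed within 1.5 times under each alternative run. Whether replicate numbers pair the samples was not settled, since each check had only 4 pairs. In no comparison did every pair correlate above 0.1 or every sample correlate best with its own number. IFN-γ Tconv- against non-phagocytic libraries, by library names, came nearest, with 2 pairs above 0.1 and 3 samples correlating best with their own number. Lgmn, 0.21 higher under IFN-γ than in M0, was at -0.12 without scaling. The cause of these changes was not tested.

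Of all genes, calls in the 3 IFN-γ uptake comparisons (Treg against Tconv, Treg against non-phagocytic, Tconv against non-phagocytic) went from 1744, 1134 and 1 to 4458, 3881 and 120 with all libraries in 1 model, and to 1030, 447 and 0 with a replicate block by library names. The same IL-10 counts went from 189, 1553 and 837 to 107, 652 and 260, and to 63, 813 and 323. IL-10 against M0 went from 3623 to 1789 in 1 model. With no filter, 1744 and 1134 became 1077 and 727. Weights took 189 to 370 and 837 to 1266, and a filter of 5 TPM took 189 to 125. A replicate block by titles took 1744 to 990 and 189 to 83, and one by library names with GC and length correction took 1134, 189, 1553 and 837 to 514, 82, 906 and 395. The Tconv against non-phagocytic difference of differences (243) gave 117 with the replicate block by library names alone, 93 with this last block, 121 without scaling and 149 to 341 with 1 library left out. Single dyes (BV421, Ax647) gave 0 and 0 for 1744, 3 and 0 for 189, and 2 and 281 for the 1851 of the Treg against Tconv difference of differences. With 1 library left out, the 1 call of Tconv against non-phagocytic under IFN-γ became 1 to 4, 1744 became 1040 to 1658, 1134 became 666 to 911, 189 became 104 to 176, 1553 became 956 to 1402 and 837 became 513 to 640. Without scaling, the share of called genes that were higher went from 54.2% to 31.5% (IFN-γ against M0), 54.6% to 29.9% (IFN-γ against IL-10), 43.2% to 15.1% and 36.7% to 17.5% (Treg against Tconv and against non-phagocytic under IFN-γ), 63.4% to 26.9% and 72.2% to 25.4% (Treg and Tconv against non-phagocytic under IL-10), and 43.2% to 19.2% and 11.5% to 64.5% (differences of differences, Treg against Tconv and Tconv against non-phagocytic). The low depth of IFN-γ libraries limits what can be seen in genes of a few TPM, such as Ciita, Rfx5, H2-DMb2 and H2-Oa.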
